A study of Mus musculus with 6 samples.

Results

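Polycomb repressive complex 1 (PRC1) is built around a RING protein, RING1 or RNF2, paired with 1 PCGF protein, and the PCGF protein decides which other subunits join. The genes described here are 10 subunits outside PRC1.1, the form that contains BCOR: the PCGF genes Bmi1, Pcgf2, Pcgf3, Pcgf5 and Pcgf6, the chromobox genes Cbx2, Cbx7 and Cbx8, and the polyhomeotic genes Phc1 and Phc2. They were taken by name, as a list of subunits, and the list was chosen with earlier results of these data known. Where a gene has several probe sets, the rule keeps the one of highest mean. All 10 of 10 were among the 19938 genes measured, each through 1 probe set that carries a single gene symbol.

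The cells were mouse pre-B cells of the C57Bl/6 strain transformed with BCR-ABL1, a model of BCR-ABL1-driven acute lymphoblastic leukaemia, and all carried the genotype Bcor fl/Y. This is a floxed copy of the X-linked gene Bcor in male cells, which hold no other copy. The control group was transduced with PMIP-ERT2, and the other group with PMIP-CRE-ERT2, which adds a Cre recombinase that tamoxifen activates. Each group was treated with 0.5 micromolar 4-hydroxytamoxifen over 2 days, RNA was taken from puromycin-resistant cells, and 3 arrays were run per group. The question, from the series title, is what Bcor does in these cells. No Cre-ERT2 array without the floxed allele was analysed here, so the effects of Bcor deletion and of Cre activity cannot be told apart. Which part of Bcor is floxed is not stated in the labels, nor whether the arrays of a group are separate cultures. The p-values therefore rest on a spread between arrays that may be technical.

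As background, canonical PRC1 holds BMI1 or PCGF2 together with a CBX and a PHC protein. The CBX chromodomain binds histone H3 trimethylated at lysine 27, the mark laid down by PRC2, and PHC proteins join complexes into larger assemblies through their SAM domains. Variant PRC1 holds RYBP or YAF2 in place of a CBX protein, uses PCGF1, PCGF3, PCGF5 or PCGF6 (and also BMI1 or PCGF2), and ubiquitinates histone H2A. Bmi1 was found as a gene that cooperates with Myc in mouse B-lymphoid tumours, and it represses the Cdkn2a locus.

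Of the 10 subunits, Pcgf2 rose with Cre-ERT2, by a factor of 1.24, and the other 9 did not pass the test. The call used limma with a Benjamini-Hochberg adjusted p under 0.05 over all genes, and 7.03% of all genes tested were called (4.05% higher and 2.98% lower). A count of 1 in 10 is near that background. The median log2 fold change of the 10 subunits was -0.0024, against -0.037 over all genes, with 5 above and 5 below 0, and for 5 of them (Pcgf3, Pcgf6, Cbx7, Phc1 and Phc2) the sign turned under at least 1 alternative scaling or with an array left out. Over all genes 808 were called higher and 594 lower, and 1051 higher and 425 lower after cyclic loess between arrays. The balance turned with array weights (1315 higher and 2024 lower) and at an adjusted p under 0.1 (1081 higher and 1190 lower).

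Bmi1 and Pcgf2 are paralogues that take the same place in canonical PRC1, and the bases before their transcription starts are shown. They were also the only members with every Cre-ERT2 array above every ERT2 array, as were 9.56% of all genes. The pair was thus chosen partly by these values, and Bmi1 was not called. RefSeq promoter windows on GRCm38.p6 were matched for 9 of the 10 subunits (Cbx2 was not). The Bmi1 window is chr2:18676768-18677017 on the plus strand and the Pcgf2 window is chr11:97699649-97699898 on the minus strand, each the 250 bases before a RefSeq start, read 5′ to 3′ along the gene. The capitals mark 3 runs that both windows hold, AAGGAATGAGG, CACGTG (the E-box that MYC and MAX bind) and GCCATTTT.
Bmi1: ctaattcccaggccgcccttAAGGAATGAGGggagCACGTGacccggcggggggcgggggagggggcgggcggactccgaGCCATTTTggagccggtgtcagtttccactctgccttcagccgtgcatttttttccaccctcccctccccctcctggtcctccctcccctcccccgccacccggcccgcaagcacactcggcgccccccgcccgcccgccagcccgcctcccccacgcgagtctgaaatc
Pcgf2: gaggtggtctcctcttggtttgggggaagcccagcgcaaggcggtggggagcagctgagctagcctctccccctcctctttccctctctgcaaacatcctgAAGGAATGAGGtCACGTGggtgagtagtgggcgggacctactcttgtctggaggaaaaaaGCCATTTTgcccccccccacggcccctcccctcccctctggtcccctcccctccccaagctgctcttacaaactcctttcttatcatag

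The 3 runs came in the same order and at near-equal distances in both windows. CACGTG began 15 bases after the start of AAGGAATGAGG in Bmi1 and 12 bases after it in Pcgf2, and GCCATTTT began 45 and 48 bases after the start of CACGTG. The E-box lay with its first base 215 bases before the Bmi1 start and 137 bases before the Pcgf2 start. With both strands searched, CACGTG was found in 6.02% of 32851 mouse windows of this length, GCCATTTT in 1.09% and AAGGAATGAGG in 0.0365%, which is 12 windows. All 3 together were found in 2 windows, those of Bmi1 and Pcgf2. The runs do not overlap each other. AAGGAATGAGG was found by comparing these windows, as their longest shared run with at least 3 different letters, and the other motifs were picked on reading them, so their joint rarity is a description and not a test. Runs as long are not rare among the subunits: 7 of 72 pairs of windows from different subunits shared a run of 11 or more bases. CACGTG also stood in the windows of Cbx8 and Phc2, beginning 98 and 57 bases before their starts, so 4 of 9 subunits had it. A match of letters shows neither binding nor a cause of the values below.

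Pcgf2 encodes PCGF2 (MEL18), the alternative to BMI1 in canonical PRC1. Its log2 level was 8.76, 8.79 and 8.93 in ERT2 replicates 1 to 3 and 9.16, 9.06 and 9.20 in Cre-ERT2 replicates 1 to 3. The groups did not overlap. The gap between the highest ERT2 array and the lowest Cre-ERT2 array was smaller than the range from lowest to highest array within either group. The means were 8.83 ± 0.0929 and 9.14 ± 0.0713 (SD, n = 3 each). The log2 fold change was 0.31 (SE 0.0577, 95% interval 0.18 to 0.44, limma adjusted p = 0.0140), and Pcgf2 ranked 732 of 19938 genes by p. The call ended without ERT2 replicate 1 (limma adjusted p = 0.0622), ERT2 replicate 2 (0.0513) or Cre-ERT2 replicate 1 (0.0533), with the log2 fold change between 0.28 and 0.36 whichever array was left out.

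Bmi1, which encodes the most studied PCGF protein, read 11.13, 11.15 and 11.16 in ERT2 replicates 1 to 3 and 11.18, 11.31 and 11.18 in Cre-ERT2 replicates 1 to 3. Every Cre-ERT2 array was above every ERT2 array. Groups stood apart in this way for 2 of the 10 subunits, both upward, and for 29.9% of all genes (9.56% upward and 20.3% downward). For Bmi1, Cre-ERT2 replicate 2 stood above the others. The means were 11.15 ± 0.0114 and 11.22 ± 0.0758 (SD, n = 3 each), and the log2 fold change of 0.076 did not pass (SE 0.0460, 95% interval -0.029 to 0.18, limma adjusted p = 0.357). Without Cre-ERT2 replicate 2 it was 0.032. The log2 fold change of Pcgf2 was 0.24 larger than that of Bmi1, a difference that an exact two-sided permutation test over the 6 arrays did not separate from the spread (p = 0.2, where the smallest p that 3 against 3 allows is 0.1).

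**Figure D1:**
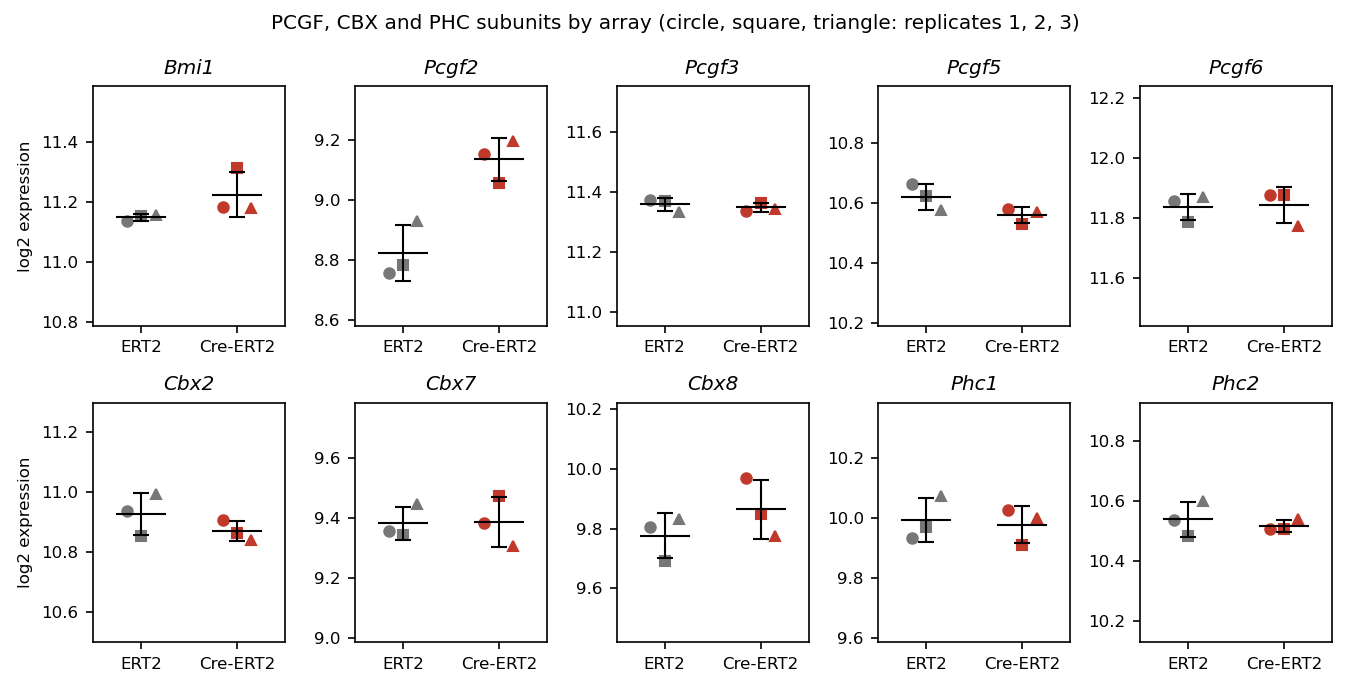
Log2 expression of each subunit (vertical axis, a span of equal size in every panel) in the ERT2 and Cre-ERT2 arrays. Points are single arrays (circle, square and triangle for replicates 1, 2 and 3), and bars give the mean and SD of 3 arrays. The Pcgf2 arrays lie at 8.76 to 8.93 in ERT2 and 9.06 to 9.20 in Cre-ERT2; in the 8 panels other than Pcgf2 and Bmi1 the groups overlap.

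Pcgf3, Pcgf5 and Pcgf6, whose products work in variant complexes only, were not called. Pcgf3, whose product forms a variant PRC1 with AUTS2 and casein kinase 2, read 11.37, 11.37 and 11.33 in ERT2 and 11.34, 11.37 and 11.34 in Cre-ERT2. Its 6 arrays spanned 0.0402 on the log2 scale, and its SD over them was smaller than that of nearly every other gene (percentile 0.848 of all genes). The log2 fold change was -0.0098 (SE 0.0362, limma adjusted p = 0.896).

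Pcgf5, the close relative of Pcgf3 in the same complexes, read 10.66, 10.62 and 10.58 in ERT2 and 10.58, 10.53 and 10.57 in Cre-ERT2. The highest Cre-ERT2 array just reached the lowest ERT2 array. The log2 fold change was -0.060 (SE 0.0401, 95% interval -0.15 to 0.031, limma adjusted p = 0.403), and -0.039 without ERT2 replicate 1. Pcgf6, whose product joins MGA, MAX and L3MBTL2 in the variant complex that binds E-box and E2F sites, read 11.86, 11.79 and 11.87 in ERT2 and 11.88, 11.88 and 11.77 in Cre-ERT2. The lowest of its 6 values was in Cre-ERT2 and the log2 fold change was 0.0050 (SE 0.0453, limma adjusted p = 0.956).

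Among the chromobox genes, whose products read the H3K27 mark, none passed the test. Cbx2 read 10.93, 10.85 and 10.99 in ERT2 and 10.90, 10.86 and 10.84 in Cre-ERT2, which gave a difference of -0.056 on the log2 scale (SE 0.0463, limma adjusted p = 0.500). It was -0.094 without ERT2 replicate 2 and -0.023 without ERT2 replicate 3. Cbx8, the next protein-coding gene after Cbx2 on chromosome 11, read 9.81, 9.69 and 9.83 in ERT2 and 9.97, 9.85 and 9.77 in Cre-ERT2. Its log2 fold change was 0.088 (SE 0.0599, limma adjusted p = 0.411), with the widest interval of those not called, -0.049 to 0.22. It was 0.035 without Cre-ERT2 replicate 1, 0.046 without ERT2 replicate 2 and 0.13 without Cre-ERT2 replicate 3. Cbx8 had the largest SE of the 10, with an SD of 0.0746 in ERT2 and 0.0990 in Cre-ERT2, and the groups overlapped for both neighbours.

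Cbx7, whose product also represses the Cdkn2a locus in other cells, read 9.36, 9.34 and 9.44 in ERT2 and 9.38, 9.47 and 9.31 in Cre-ERT2. Both the lowest and the highest array were in Cre-ERT2. The log2 fold change was 0.0055 (SE 0.0525, 95% interval -0.11 to 0.13, limma adjusted p = 0.959).

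The polyhomeotic genes did not pass either. Phc1 read 9.93, 9.97 and 10.07 in ERT2 and 10.02, 9.91 and 9.997 in Cre-ERT2, with a difference of -0.014 on the log2 scale (SE 0.0511, limma adjusted p = 0.897). Phc2 read 10.54, 10.48 and 10.60 in ERT2 and 10.50, 10.51 and 10.54 in Cre-ERT2, and its difference was -0.022 (SE 0.0422, limma adjusted p = 0.789). For both genes the Cre-ERT2 arrays lay inside the range of the ERT2 arrays or reached just below it.

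A missed threshold does not show equal levels, so the intervals give what the arrays could hide. For the 9 subunits that were not called, the 95% intervals ran from -0.16 (Cbx2) to 0.22 (Cbx8) on the log2 scale, or from a level 10.6% lower to one 16.9% higher. For Pcgf2 the interval ran from 13.3% to 36.0% higher. The values come from the RNA of whole cultures, in which fewer cells of a type and less RNA per cell cannot be told apart.

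**Figure D2:**
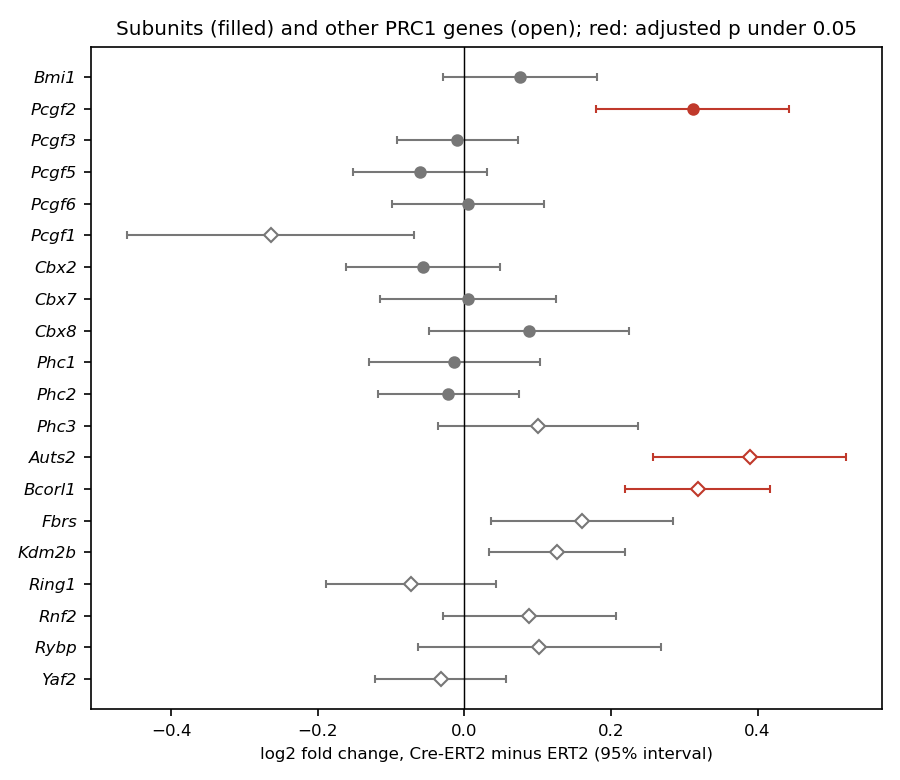
Log2 fold change (Cre-ERT2 minus ERT2, horizontal axis) with its 95% interval from limma for the 10 subunits (filled circles) and other PRC1 genes (open diamonds). Red marks an adjusted p under 0.05: Pcgf2 at 0.31, Auts2 at 0.39 and Bcorl1 at 0.32, while the intervals of the other 9 subunits include 0. Of the 30 other PRC1 genes 10 are drawn, picked by hand, and Bcor, called at -0.96, is left off to keep the scale. The drawn genes lean upward through this choice. They hold all 4 genes with every Cre-ERT2 array above every ERT2 array, but only Pcgf1 of the 5 with every one below. Of the 30, 13 had a log2 fold change above 0 and 17 below.

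The partners of these subunits were counted from a list of 33 other PRC1 genes, of which 30 were analysed here. Of the 30, 2 rose, 1 fell and 27 did not pass, and the median log2 fold change was -0.025. The share called was 10%, against 7.03% of all genes, whose median was -0.037. That 10% counts the floxed gene itself, so it is not a share above the background. The gene that fell was the floxed gene Bcor, at 10.07, 10.11 and 10.17 in ERT2 and 9.08, 9.22 and 9.18 in Cre-ERT2 (log2 fold change -0.96, limma adjusted p = 2.1e-05). The labels imply a fall, but the Cre-ERT2 level was still 51.5% of the ERT2 level. Why this signal remained, and how complete the deletion was, was not tested. Its relative Bcorl1 rose by 0.32 (SE 0.0433, limma adjusted p = 0.00308).

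The other gene that rose belongs with PCGF3 and PCGF5. Auts2 encodes a subunit of their variant complexes that is known for turning on transcription through casein kinase 2 and the acetyltransferase EP300. It read 8.84, 8.95 and 8.94 in ERT2 and 9.25, 9.23 and 9.41 in Cre-ERT2, with a wide gap between the groups. The log2 fold change was 0.39 (SE 0.0576, limma adjusted p = 0.00479), and it was called under all 15 alternative settings tried. Of the 6 measured partners in these complexes Auts2 was the only one called (16.7%, against 7.03% of all genes). The AUTS2 relatives Fbrs and Fbrsl1 were at 0.16 (limma adjusted p = 0.124) and -0.026 (0.736), and the casein kinase subunits Csnk2a1 and Csnk2a2 at -0.044 and 0.0016.

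No partner of PCGF6 was called (0 of 9 by limma, 1 of them with an unadjusted p under 0.05), and their log2 fold changes ran from -0.097 for Wdr5 to 0.030 for Mga. The RING proteins, which all PRC1 forms share, and RYBP and YAF2, which belong to the variant forms, were not called either (0 of 4 by limma, and 0 with an unadjusted p under 0.05). With 7.03% of all genes called, a count of 0 in groups this small is near the background and says little about them. Ring1 was at -0.073 (limma adjusted p = 0.424), Rnf2 at 0.089 (0.342), Rybp at 0.10 (0.427) and Yaf2 at -0.032 (0.655). Among the paralogues of the subunits, Phc3 was at 0.10 (limma adjusted p = 0.353). Pcgf1, the PCGF protein of PRC1.1, was at -0.26 with every Cre-ERT2 array below every ERT2 array, and did not pass (SE 0.0856, limma adjusted p = 0.112).

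Of 12 measured PRC2 genes, whose complex makes the mark that CBX proteins bind, 1 rose and 1 fell, or 16.7% called against 7.03% of all genes. Jarid2, which recruits PRC2 and binds ubiquitinated H2A, read 11.08, 11.05 and 11.06 in ERT2 and 11.29, 11.28 and 11.26 in Cre-ERT2 (log2 fold change 0.21, SE 0.0356, limma adjusted p = 0.00823). Phf19, a Polycomb-like accessory subunit, was at -0.19 (SE 0.0443, limma adjusted p = 0.0354), and it was called with ERT2 replicate 2 left out but with no other array left out (adjusted p up to 0.131). Of 9 enzymes and cofactors that remove ubiquitin from H2A none was called (0 by limma, and 0 with an unadjusted p under 0.05), and those of smallest p were Usp22 at 0.074 and Usp21 at -0.091.

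Genes that PRC1 is known to silence were taken as a list of 25, 24 of them measured. Of these 1 rose, 0 fell and 23 did not pass, 4.17% called against 7.03% of all genes, with a median log2 fold change of -0.047. The gene that rose was the D-type cyclin Ccnd2, at 13.55, 13.54 and 13.55 in ERT2 and 13.72, 13.72 and 13.73 in Cre-ERT2 (log2 fold change 0.18, limma adjusted p = 0.0181). Leaving out replicate 1 or 2 in either group ended its call (adjusted p up to 0.0792). Cdkn2a, the classical target of BMI1 and CBX7, read 11.55, 11.54 and 11.56 in ERT2 and 11.56, 11.55 and 11.68 in Cre-ERT2 (log2 fold change 0.050, limma adjusted p = 0.532). None of the 9 HOX genes in the list was called, with log2 fold changes from -0.11 (Hoxc8) to 0.034 (Hoxa5). Their ERT2 means were 6.93 (Hoxa5) to 8.43 (Hoxa7), under the median log2 value of every array (8.61 to 8.68). Several other listed genes were as low in ERT2, such as Zic1 (7.58) and Meis1 (7.62), and others were not, such as Lhx2 (9.80). At such levels a missing call says little about silencing, and the share called over the list is limited in the same way. Ccnd2 and Cdkn2a read far above the array medians already in ERT2. Whether the rise of Ccnd2 has to do with silencing was not tested.

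**Figure D3:**
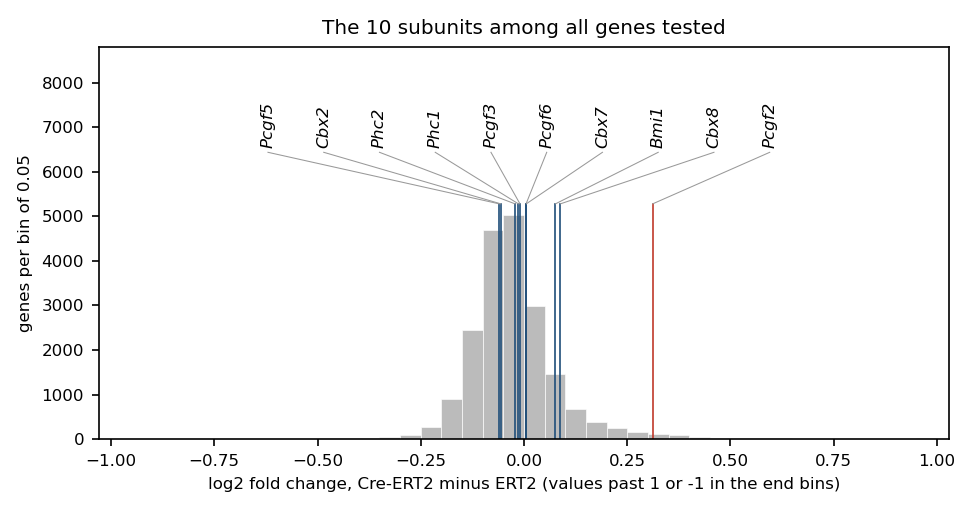
Number of genes (vertical axis) per bin of log2 fold change, Cre-ERT2 minus ERT2 (horizontal axis), for all 19938 genes, with the 10 subunits as lines. Pcgf2 (red, 0.31) lies in the upper tail and the other 9 (blue) lie between -0.060 and 0.088, near the middle of the distribution at -0.037.

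Genes with the pattern most like that of Pcgf2 were found by the root mean square difference of log2 values over the 6 arrays, each gene centred on its own mean, among the 9968 other genes whose SD was at least that of the median gene. The nearest were the phosphatase gene Ppm1m (0.0293), the cytokine signalling inhibitor Socs3 (0.0297) and Shisa5 (0.0306), with log2 fold changes of 0.29, 0.33 and 0.33. All of them, like Pcgf2, had ERT2 replicate 3 as the highest control array and Cre-ERT2 replicate 2 as the lowest Cre-ERT2 array. This follows largely from their choice as the nearest genes over these same arrays.

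**Figure D4:**
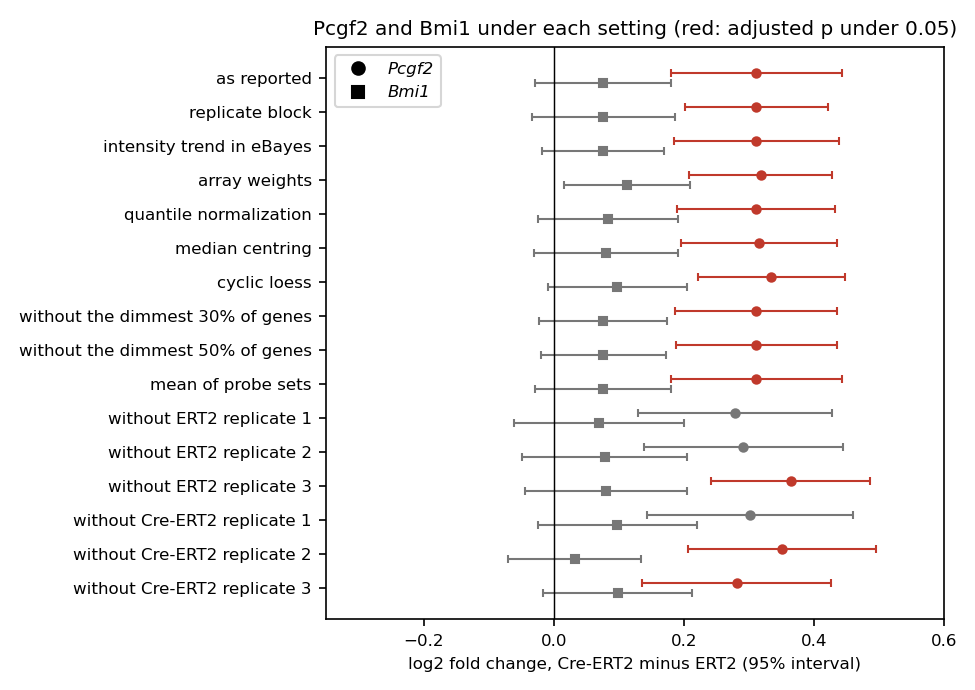
Log2 fold change of Pcgf2 (circles) and Bmi1 (squares), Cre-ERT2 minus ERT2, with 95% intervals, as reported and under 15 alternative settings (one per row). Red marks an adjusted p under 0.05: Pcgf2 keeps values of 0.28 to 0.36 and loses its call in 3 rows, those without ERT2 replicate 1, ERT2 replicate 2 or Cre-ERT2 replicate 1, and Bmi1 lies at 0.032 to 0.11 and is called in none.

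As a check of the cell type, the mean log2 level of 14 measured pre-B markers was 12.06 to 12.12 in the ERT2 arrays and 12.03 to 12.08 in the Cre-ERT2 arrays, with Igll1, Cd79a, Cd79b and Pax5 not called. Of the 14, 5 were called (35.7%, against 7.03% of all genes), Dntt and Cd24a higher and Il7r, Rag1 and Rag2 lower. The 10 myeloid markers averaged 8.03 in every ERT2 array and 8.04 to 8.05 in Cre-ERT2, with Lyz2 alone called (0.45), and the 9 T and NK cell markers averaged 7.93 to 8.02 and 7.89 to 7.92, with Ncr1 alone called (-0.23). None of 6 erythroid and megakaryocyte or 8 stromal markers was called (0 by limma; 0 and 3 with an unadjusted p under 0.05). The erythroid and megakaryocyte markers averaged 8.28 to 8.29 in ERT2 and 8.26 to 8.30 in Cre-ERT2. The stromal markers averaged 8.407 to 8.465 and 8.35 to 8.39. Both the stromal and the T and NK cell averages were lower in every Cre-ERT2 array than in every ERT2 array. The myeloid averages were higher in every Cre-ERT2 array (8.039 to 8.051, against 8.028 to 8.032). Among all 19938 genes, 13592 had a log2 fold change below 0, so a lower average is also the common direction. Probe sets have no true 0 on this scale, so no marker could be called absent, and whether other cells had a part in the Pcgf2 difference was not tested. Median log2 values per array were 8.61 to 8.68, and the first principal component, with 51.9% of the variance, separated the groups.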

How the data were processed

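The authors deposited log2 expression values per probe set for 6 arrays. The submitters' processing notes list RMA and Partek 6.5 without saying which did what. Per the labels, the RNA carried a biotin label. The background setting and build are not given in the sources used here, and the arrays' detection limits are unknown. Precision is limited by the few arrays, with a median SE of 0.0477 for a log2 fold change.

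Of 35556 probe sets, 21789 had 1 gene symbol, 1621 several and 12146 none listed. Identifiers of 21698 matched the GRCm38.p6 gene table and 91 did not. For each gene the brightest single-symbol probe set by mean was kept, giving 19938 genes. Differences (Cre-ERT2 minus ERT2) were fitted with limma 3.58.1 in R 4.3.3 (lmFit, eBayes) on all 6 arrays, with Benjamini-Hochberg adjustment over all genes and calls at 0.05. Errors are the SD over 3 arrays or the moderated SE. The pipeline was tested on simulated data. Python 3.11.15, pandas 2.3.3 and matplotlib 3.10.9 were used for sequences and plots.

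All 10 subunits were named, with every called gene of each list (where none, the 2 of smallest p), the paralogues, Bcor, and the 3 genes of most similar pattern to a called subunit. HOX genes, complex partners and markers beyond this were picked with their values known. The members and lists were chosen with earlier results of these data known. Alternatives were a replicate block, an intensity trend, array weights, quantile normalization, median centring, cyclic loess, a filter on the dimmest 30% or 50%, averaged probe sets, an adjusted p of 0.1 and each array left out.

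Equal replicate numbers did not pair the arrays: the correlation of their deviations from the group means was 0.0506, -0.0946 and -0.26 for replicates 1, 2 and 3. For unequal numbers it ran from -0.29 (ERT2 replicate 2 with Cre-ERT2 replicate 1) to 0.31 (ERT2 replicate 2 with Cre-ERT2 replicate 3). Some arrays of unequal number thus varied together across the groups, which the replicate block does not model.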

Additional observations from a re-analysis of the deposited data

How the results depend on the processing

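The number of genes called over the whole table was 1402, and it was 805 with the replicate block, 3339 with array weights, 2271 at an adjusted p under 0.1 and between 743 and 1341 with 1 array left out. With each of the other settings it stayed within 1.5 times of 1402. The number of subunits called was 1 under every alternative but the arrays left out, where it was 0 to 1. The replicate block kept the Pcgf2 call (adjusted p = 0.0244 by limma) and ended those of Phf19 (0.0763) and Ccnd2 (0.0672). The replicate numbers do not pair the samples, so this is a check of the fit only. Of 150 combinations of a subunit and an alternative, 134 kept direction and side of the threshold, 3 ended the Pcgf2 call, and 13 turned the sign of a difference that was not called in either case. The replicate block, the intensity trend, the filters on dim genes and the averaged probe sets left each subunit's log2 fold change unchanged. Under these settings no sign could turn, so the count of 134 overstates how stable the directions are. Pcgf3 was at 0.0036 after quantile normalization and 0.013 after cyclic loess, Cbx7 at -0.012 after quantile normalization and Phc1 at 0.00087 after cyclic loess. With 1 array left out, Pcgf6 lay between -0.020 and 0.039, Cbx7 between -0.038 and 0.046, Phc1 between -0.044 and 0.027 and Phc2 between -0.050 and 0.0079. For these 5 genes even the sign depended on the setting. The signs of Bmi1, Pcgf5, Cbx2 and Cbx8 held, but these genes were called under no setting and their intervals as reported include 0. The data thus give no clear direction for any subunit other than Pcgf2.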
